A study of Rattus norvegicus with 6 samples.

Results

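Hox genes encode the homeodomain transcription factors that give cells their position along the body and along the limb. The rows of the count table whose symbol is Hox followed by a cluster letter and a paralog number were taken, and antisense and opposite-strand rows were left out. This gave 34 genes of the 21026 in the table, 11 in the HoxA cluster, 6 in HoxB, 9 in HoxC and 8 in HoxD. All 34 matched a RefSeq symbol of rat assembly GRCr8, and the other 5 of the 39 Hox genes in RefSeq (Hoxb1, Hoxb5, Hoxb8, Hoxb9 and Hoxd12) were not analysed here. The cells, labelled rat bone marrow mesenchymal stem cells, are adherent cells from which bone, cartilage and fat can be grown, and their polyA RNA was read in 3 aged and 3 young libraries. The labels name no treatment other than aged or Young, and they tell neither the bone of origin nor the age, sex, strain or passage. Replicates are called biological without saying whether each is 1 animal. The p-values therefore weigh the difference between groups against how far these 6 libraries vary within groups, and part of that variation may be technical.

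In the embryo the genes of each cluster are switched on in the order in which they lie on the chromosome, paralog 1 first and most anterior, paralog 13 last and most posterior. In mouse limbs the posterior HoxA and HoxD genes are needed segment by segment, with paralogs 9 and 10 for the upper limb, paralogs 11 for the forearm and lower leg, and paralogs 13 for hand and foot. Adult stromal cells and fibroblasts keep much of the Hox pattern of the place they come from. Hox proteins bind DNA together with partner proteins of the Meis and Pbx families, and Polycomb and Trithorax complexes keep the clusters silent or active.

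The 3 clusters HoxA, HoxC and HoxD were transcribed in both groups, and HoxB had 12 counts in aged and 0 in young libraries. In aged cells most of the transcribed genes were higher, from paralog 4 to paralog 10, whereas Hoxa11, Hoxd11 and Hoxa13 were lower. Hoxd11 fell to 0.727 ± 0.468 CPM in aged cells, against 12.2 ± 0.788 CPM in young cells (SD, n = 3 each). Hoxc13 was found in aged libraries and had 0 counts in every young one. Of the 26 Hox genes with enough counts to test, 18 were higher and 3 lower in aged cells at an adjusted p under 0.05 (edgeR quasi-likelihood F test with Benjamini-Hochberg adjustment over 14273 tested genes). That is 69.2% and 11.5% of the tested Hox genes, beside 44.7% of all tested genes called higher and 41.8% called lower (86.4% in either direction). The median log2 change of the tested Hox genes was 0.78, and it was 0.05 over all tested genes. A called change of at least 2-fold was found upward in 11 Hox genes and downward in 3, beside 29.4% and 21.0% of all tested genes. CPM is a gene's count relative to the library total after correction of that total by the TMM factor, and a log2 change is aged over young.

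The windows before the start sites of 4 neighbouring genes that moved apart are shown first, because Hoxd11 and Hoxa11 fell while Hoxd10 and Hoxa10, the next gene of each cluster, rose. Each is the 250 bases before the start given by RefSeq on GRCr8, read 5′ to 3′ on the strand of the gene, which is plus for HoxD and minus for HoxA. They lie at chr3:79992144-79992393 (Hoxd11), chr3:80001697-80001946 (Hoxd10), chr4:82676802-82677051 (Hoxa11) and chr4:82671491-82671740 (Hoxa10, the more upstream of its 2 windows). Capitals mark matches to any of 4 short motifs searched on both strands.
Hoxd11: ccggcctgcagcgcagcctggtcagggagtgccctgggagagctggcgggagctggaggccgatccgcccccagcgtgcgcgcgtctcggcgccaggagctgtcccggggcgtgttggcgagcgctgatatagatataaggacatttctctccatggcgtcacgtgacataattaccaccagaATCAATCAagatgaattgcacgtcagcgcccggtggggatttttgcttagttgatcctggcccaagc
Hoxd10: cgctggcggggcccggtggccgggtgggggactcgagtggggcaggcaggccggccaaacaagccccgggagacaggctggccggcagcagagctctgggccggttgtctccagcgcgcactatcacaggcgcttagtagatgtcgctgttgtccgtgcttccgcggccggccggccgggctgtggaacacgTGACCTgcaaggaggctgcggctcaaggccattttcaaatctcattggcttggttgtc
Hoxa11: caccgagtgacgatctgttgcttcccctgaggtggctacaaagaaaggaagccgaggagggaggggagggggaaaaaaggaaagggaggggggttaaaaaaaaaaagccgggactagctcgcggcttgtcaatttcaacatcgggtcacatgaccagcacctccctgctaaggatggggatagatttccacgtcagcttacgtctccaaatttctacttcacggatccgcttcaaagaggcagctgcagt
Hoxa10: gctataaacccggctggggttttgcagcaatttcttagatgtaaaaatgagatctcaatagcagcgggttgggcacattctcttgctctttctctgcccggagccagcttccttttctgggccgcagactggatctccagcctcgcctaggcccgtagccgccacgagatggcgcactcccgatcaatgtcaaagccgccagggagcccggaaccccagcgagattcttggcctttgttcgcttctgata
The motifs were TGATNNAT of Hox-Pbx pairs, TGACAG of Meis proteins, AGGTCA as the half-site of retinoid receptors, and TTTATG of the caudal factors. Hoxd11 has a match to TGATNNAT and Hoxd10 a match to AGGTCA, while the Hoxa11 and Hoxa10 windows have none of the 4. RefSeq gave 19 windows for 18 of the 34 Hox genes. TGATNNAT occurs in 2 of them (Hoxd11 and Hoxa2) and in 7.96% of all 33469 windows, TGACAG in 3 (Hoxa2, Hoxa3 and Hoxa4) and 15.8%, AGGTCA in 3 (Hoxd10, Hoxd4 and Hoxc4) and 14.1%, and TTTATG in 2 (Hoxd4 and Hoxa9) and 11.4%. Matches of different motifs overlap once, in Hoxd4. The Hox windows have a median GC content of 61.2% and a median observed over expected CpG ratio of 0.887, and all windows have 51.2% and 0.383. A match describes letters only.

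The libraries held 34638874 to 38921547 counts in the aged group and 40180480 to 42479626 in the young group. Of these, 15841 to 17319 counts per aged library and 9775 to 10636 per young library fell on Hox genes. A count of 0 allows up to 3 counts, which is 0.0688 to 0.0840 CPM depending on the library; such limits cover counting error only. Mitochondria-encoded transcripts took 4.25% to 4.46% of the counts in aged libraries and 1.07% to 1.36% in young ones. Correlations of log2 CPM across genes, which are not independent replicates, were 0.991 to 0.993 within groups and 0.821 to 0.833 between them. Scaling by library totals alone raised the median log2 change of all tested genes to 0.39, and the higher ones made up 62.3% of the calls under that scaling and 51.7% under TMM. Changes below are relative to the TMM scaling.

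Markers of the labelled cell type were present in both groups, with 9 of 12 stromal markers lower and 2 higher in aged cells and a summed level of 21346 to 21590 CPM in aged and 43630 to 44196 CPM in young libraries. Of 12 blood and myeloid markers 4 could be tested, 3 lower and 1 (Csf1r) higher, with sums of 43.7 to 44.8 CPM in aged and 93.7 to 96.5 CPM in young libraries. The pan-leukocyte gene Ptprc had 1 count over the aged libraries and 0 over the young ones, and Adgre1 and Tyrobp had 0 in the aged ones. Fat markers (4 listed) summed to 0.481 to 1.09 CPM in aged and 350.5 to 366.9 CPM in young libraries, with 3 of 3 tested lower. Cartilage markers (4 listed) summed to 1.38 to 2.23 CPM in aged and 304.5 to 324.6 CPM in young libraries, with 3 of 3 tested lower. Nearly all of the young sum was Prg4, with a mean of 307.8 CPM in young cells, beside 0.943 for Acan and 3.13 for Sox9. Col2a1 was not tested and went the other way, with 33 counts over the aged libraries and 0 over the young ones. Muscle markers (7 found) summed to 900.7 to 924.8 CPM in aged and 642.7 to 672.2 CPM in young libraries, with 3 higher and 2 lower of 5 tested. Neural markers (4 found) summed to 17.8 to 17.9 CPM in aged and 17.01 to 18.6 CPM in young libraries, with 1 higher and 1 lower. Epithelial markers (3 found) summed to 3.76 to 4.26 CPM in aged and 0.791 to 1.01 CPM in young libraries, and 1 of 1 tested was higher. Endothelial markers (7 found, 1 tested and higher) and erythroid markers (3 found, none tested) summed to 0.359 to 0.678 and 0.128 to 0.339 CPM in aged libraries, against 0.237 to 0.582 and 0.280 to 0.720 CPM in young ones. Myod1, Cdh5, Tie1 and Emcn were among the markers with 0 counts in the aged libraries, and Ttn, Emcn, Alas2 and Col2a1 had 0 in the young ones. In bulk RNA, fewer cells of a type and less RNA per cell cannot be told apart, and the part of these markers in the Hox results was not tested.

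A gene was counted as detected in a group when each of its libraries had at least 10 counts. By that measure 24 Hox genes were detected in aged cells and 23 in young cells, 22 of them in both. HoxA had 9 genes detected in aged and 10 in young cells, HoxC had 8 and 7, HoxD had 7 and 6, and HoxB had 0 in both. Hoxc13 and Hoxd3 were detected in aged cells alone, and Hoxa13 in young cells alone. Hoxd3 and Hoxa13 had counts in all 6 libraries, so their place depends on the minimum. With a minimum of 1 CPM in every library the numbers were 21 in aged and 19 in young cells, and with at least 1 count they were 28 and 24.

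The HoxB genes, which in mouse pattern the hindbrain, neck and thorax and are also active in blood-forming cells, were close to absent. All 6 together had 12 counts over the aged libraries, against 0 over the young ones. Hoxb2 had 5, 0 and 0 counts in the aged libraries, Hoxb6 had 0, 2 and 3, and Hoxb7 and Hoxb13 had 1 count each in the same library, aged replicate 2. Hoxb3 and Hoxb4 had 0 counts in all 6 libraries, which allows up to 3 counts in each. At this depth neither group can be given a HoxB level, and no fold is given.

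**Figure D1:**
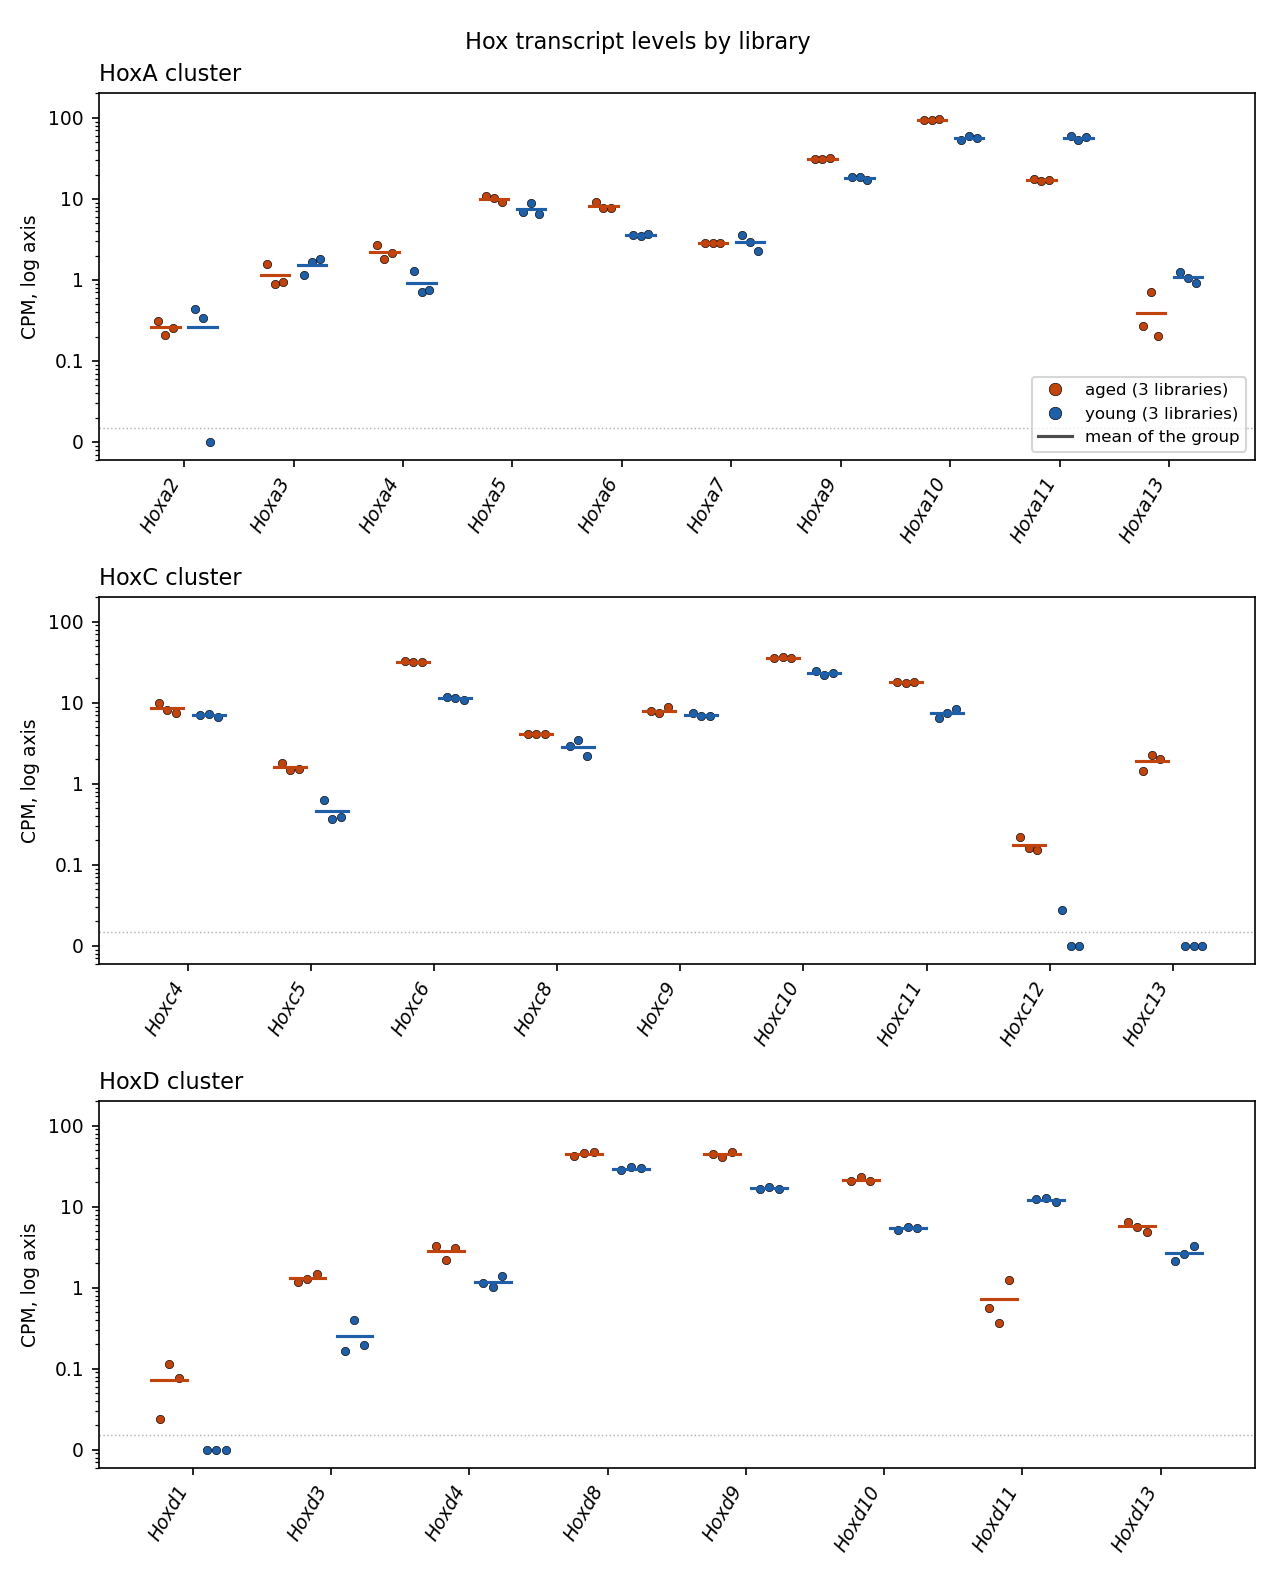
Level of the HoxA, HoxC and HoxD genes described in the text in every library, in CPM on a log axis, with libraries at 0 drawn on the lowest tick under the dotted line; points are libraries and bars group means, drawn where the mean is above that line. Hoxd11 lies between 0.367 and 1.26 CPM in aged libraries and between 11.3 and 12.8 CPM in young ones, while Hoxd10 beside it lies between 20.7 and 23.0 CPM in aged and between 5.10 and 5.65 CPM in young libraries; heights of different genes are not per transcript length and cannot be ranked.

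Because no transcript lengths were used, levels are compared between groups for the same gene and not between genes. Summed over each cluster, HoxC had 110.2 ± 1.43 CPM in aged and 59.3 ± 1.15 CPM in young cells, and HoxD had 121.6 ± 4.18 and 68.1 ± 2.44 CPM (SD, n = 3 each). HoxA moved less, with 169.6 ± 1.80 CPM in aged and 149.3 ± 2.04 CPM in young cells, a log2 ratio of 0.18 that became 0.52 when libraries were scaled by totals alone. The aged libraries lay above the young ones in all 3 sums. As shares of all Hox counts in a library, which do not depend on the scaling, HoxA took 42.2% ± 0.302 in aged and 54.0% ± 0.246 in young cells. HoxC took 27.4% ± 0.504 and 21.4% ± 0.497, and HoxD took 30.3% ± 0.796 and 24.6% ± 0.712, without overlap between groups. By paralog number, group 11 took 8.91% ± 0.179 of Hox counts in aged cells and 27.6% ± 1.14 in young cells. Groups 9 and 10 took 20.9% ± 0.877 and 38.0% ± 0.756 in aged cells, against 15.2% ± 0.339 and 30.6% ± 0.606 in young cells. These sums and shares are descriptions with no test.

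The paralog 11 genes split by cluster. Hoxd11, which acts with Hoxa11 in mouse to form the forearm bones, had 23, 16 and 49 counts in the aged libraries, against 448, 485 and 403 in the young ones. In CPM this was 0.557, 0.367 and 1.26 in aged libraries, against 12.4, 12.8 and 11.3 in young ones. Every aged library lay far below every young one, and aged replicate 3 was the highest of its group. The log2 change was -4.09 ± 0.24 (SE), 17-fold lower in aged cells (edgeR adjusted p = 2.5e-11). With single libraries left out it ran from -4.72 (without aged replicate 3) to -3.75. Hoxa11, needed in mouse for the same limb segment and for the uterus, had 17.5, 16.9 and 17.3 CPM in aged libraries, against 59.7, 53.7 and 57.3 CPM in young ones. The groups were well apart and the aged libraries nearly equal, with a log2 change of -1.72 ± 0.06, 3.3-fold lower in aged cells (edgeR adjusted p = 3.6e-14). Hoxc11, expressed in mouse hindlimb and tail, went the other way. It had 17.8, 17.4 and 18.3 CPM in aged libraries, against 6.43, 7.44 and 8.42 CPM in young ones, a log2 change of 1.26 ± 0.10 (edgeR adjusted p = 2.4e-09).

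Hoxa11-as, the antisense RNA next to Hoxa11, is no member and is given only because it lies beside Hoxa11. The windows of the 2 genes share 226 bases on GRCr8. These windows lie before the start sites, so sharing them does not show that the transcripts overlap. In RefSeq the span of Hoxa11 was not among the Hox spans found to overlap another gene. The annotation and strand setting behind the counts are unknown, and how reads were split between the pair was not tested. Hoxa11-as had 3.12, 3.97 and 3.10 CPM in aged libraries, against 22.3, 20.2 and 19.7 CPM in young ones, and it was 6.08-fold lower in aged cells (edgeR adjusted p = 3.8e-13). Its counts were 0.179, 0.235 and 0.179 of those of Hoxa11 in aged libraries, against 0.373, 0.376 and 0.344 in young ones. Hoxaas3 had 0 counts in aged libraries and 8 over the young ones, and Hoxb5os had 0 in all 6.

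Ratios of neighbouring genes within a library do not depend on the scaling either. The count of Hoxd11 was 0.0270, 0.0159 and 0.0605 times that of Hoxd10 in aged libraries, against 2.43, 2.27 and 2.07 times in young ones. For Hoxa11 over Hoxa10 the ratio was 0.186, 0.178 and 0.179 in aged libraries, against 1.12, 0.904 and 1.02 in young ones. In both clusters the aged ratios were all below the young ones. Hoxc11 over Hoxc10 gave 0.499, 0.479 and 0.517 in aged libraries, against 0.264, 0.338 and 0.366 in young ones, so in HoxC the aged ratios were all above. A ratio shows unequal change of its 2 genes and does not tell which of them changed.

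**Figure D2:**
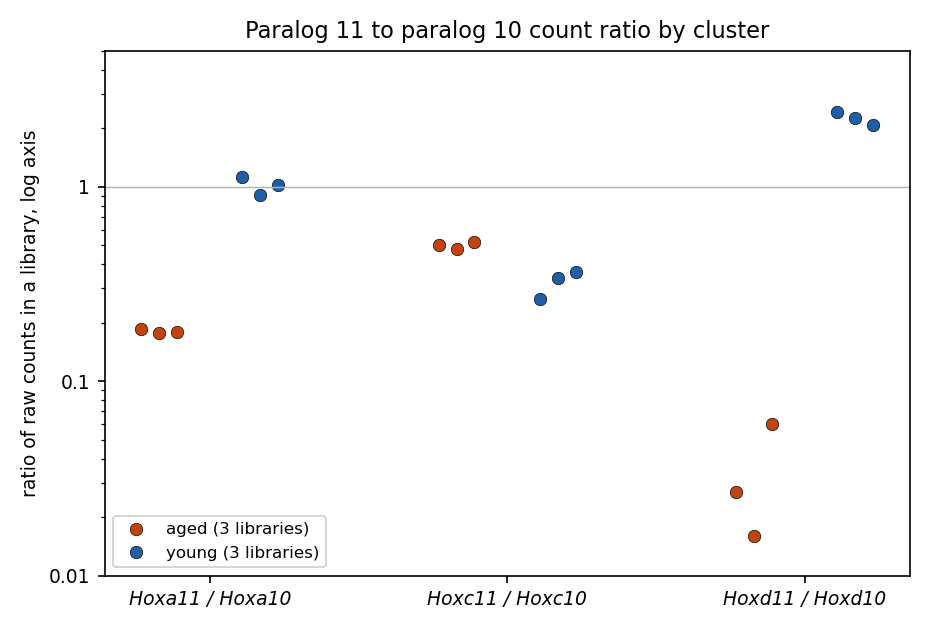
Raw count of the paralog 11 gene divided by that of the paralog 10 gene of the same cluster in each library, on a log axis, with 1 point per library and a line at a ratio of 1. The aged points lie below the young ones for HoxA (0.178 to 0.186 against 0.904 to 1.12) and HoxD (0.0159 to 0.0605 against 2.07 to 2.43) and above them for HoxC (0.479 to 0.517 against 0.264 to 0.366).

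The most posterior genes also differed between clusters. Hoxc13, which in mouse is known for hair, nail and tongue, had 60, 100 and 79 counts in aged libraries and 0 in each young library. It was at least 23.4-fold higher in aged cells, computed against a floor of 3 counts per young library (edgeR adjusted p = 2.5e-08). Its neighbour Hoxc12 had 9, 7 and 6 counts in aged libraries, against 1, 0 and 0 in young ones, too few to test. The TMM-scaled count ratio of Hoxc12 was 19.5, with a 95% exact binomial interval of 3.15 to 804. That interval pools the libraries of each group and covers counting error only, not variation between libraries. Both genes were thus seen at low counts, and each aged library was above each young one. Hoxd13, the digit and hand gene of HoxD, had 6.56, 5.66 and 4.87 CPM in aged libraries, against 2.16, 2.64 and 3.25 CPM in young ones, and rose by a log2 change of 1.09 ± 0.18 (edgeR adjusted p = 2.3e-05). Hoxa13, its HoxA paralog, had 11, 31 and 8 counts in aged libraries, against 45, 40 and 33 in young ones. It was lower by a log2 change of -1.42 ± 0.44 (edgeR adjusted p = 0.0064). The aged libraries were uneven, so that the change was -2.17 without aged replicate 2 and -1.13 without aged replicate 3. The count of Hoxd13 was 24.6, 7.97 and 23.8 times that of Hoxa13 in aged libraries, against 1.73, 2.50 and 3.52 times in young ones. With a filter on a minimum of 50 counts Hoxa13 could not be tested.

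Paralogs 9 and 10, the genes of the upper limb and lumbar region in mouse, were higher in aged cells in 5 of 6 cases. Hoxd10 had 20.7, 23.0 and 20.8 CPM in aged libraries, against 5.10, 5.65 and 5.46 CPM in young ones, a log2 change of 1.99 ± 0.10 (edgeR adjusted p = 1.4e-12). Hoxd9 had 44.6, 41.0 and 47.4 CPM in aged libraries, against 16.7, 17.6 and 16.4 CPM in young ones, 2.62-fold higher. For Hoxa10, also known for uterus and blood cells, the values were 93.8, 94.8 and 96.6 CPM in aged libraries, against 53.1, 59.3 and 56.0 CPM in young ones. The 3 genes had no overlap between groups, and Hoxa10 was 1.69-fold higher (edgeR adjusted p = 1.3e-10). Hoxa9 had 31.1, 31.0 and 32.1 CPM in aged libraries, against 18.5, 18.5 and 17.3 CPM in young ones, 1.74-fold higher. Hoxc10, a hindlimb gene in mouse, had 35.8, 36.3 and 35.3 CPM in aged libraries, against 24.4, 22.0 and 23.0 CPM in young ones, 1.55-fold higher. Hoxc9, a gene of the thorax, overlapped between groups with 7.82, 7.41 and 8.77 CPM in aged libraries, against 7.45, 6.81 and 6.80 CPM in young ones, and was not called (edgeR adjusted p = 0.14). With library totals alone as scaling it was called higher (edgeR adjusted p = 5.0e-04).

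Among paralogs 5 to 8, the genes of neck and thorax in mouse, 6 of 7 tested genes were higher in aged cells and Hoxa7 was not called. Hoxc6 had 32.9, 32.2 and 31.5 CPM in aged libraries, against 11.7, 11.4 and 10.9 CPM in young ones, a log2 change of 1.51 ± 0.07 (edgeR adjusted p = 1.7e-12). Hoxa6 had 9.11, 7.63 and 7.79 CPM in aged libraries, against 3.60, 3.48 and 3.67 CPM in young ones, 2.28-fold higher. Both paralog 6 genes thus more than doubled without overlap. Hoxc5 was low, with 74, 65 and 59 counts in aged libraries, against 23, 14 and 14 in young ones, 3.42-fold higher (edgeR adjusted p = 9.3e-05). Hoxa5, known for lung and breastbone, had 10.9, 10.2 and 9.10 CPM in aged libraries, against 6.90, 8.92 and 6.55 CPM in young ones, 1.35-fold higher (edgeR adjusted p = 0.0044). Hoxd8 had 41.8, 46.1 and 47.4 CPM in aged libraries, against 28.1, 30.5 and 30.0 CPM in young ones, 1.53-fold higher. These groups were apart as well, though Hoxa5 came close. Hoxc8 had 4.17, 4.15 and 4.08 CPM in aged libraries, against 2.94, 3.48 and 2.18 CPM in young ones, 1.44-fold higher (edgeR adjusted p = 0.014), and lost the call without young replicate 3 (edgeR adjusted p = 0.081). Hoxa7 had 2.88, 2.89 and 2.82 CPM in aged libraries, against 3.57, 2.90 and 2.27 CPM in young ones. Its aged values fell inside the young range (edgeR adjusted p = 0.91).

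Anterior genes, paralogs 1 to 4, had few counts apart from Hoxc4. Hoxd3 had 48, 56 and 57 counts in aged libraries, against 6, 15 and 7 in young ones, 5.07-fold higher (edgeR adjusted p = 4.0e-05). Hoxd4 had 135, 95 and 120 counts in aged libraries, against 41, 39 and 50 in young ones, 2.39-fold higher. The fold of Hoxa4, which had 111, 79 and 84 counts in aged libraries and 47, 27 and 27 in young ones, was 2.40. These 3 genes did not overlap between groups. Hoxc4 had 9.86, 8.19 and 7.54 CPM in aged libraries, against 7.06, 7.28 and 6.74 CPM in young ones, a log2 change of 0.28 ± 0.12 that just passed (edgeR adjusted p = 0.043). Without young replicate 1, young replicate 3, aged replicate 1 or aged replicate 2 its call was lost, with edgeR adjusted p of 0.088, 0.12, 0.26 and 0.060. Hoxa3 had 65, 39 and 37 counts in aged libraries, against 42, 64 and 64 in young ones, and Hoxa2 had 13, 9 and 10, against 16, 13 and 0, and neither was called (edgeR adjusted p = 0.19 and edgeR adjusted p = 0.97). Hoxd1 had 1, 5 and 3 counts in aged libraries and 0 in each young one, too few for a fold.

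**Figure D3:**
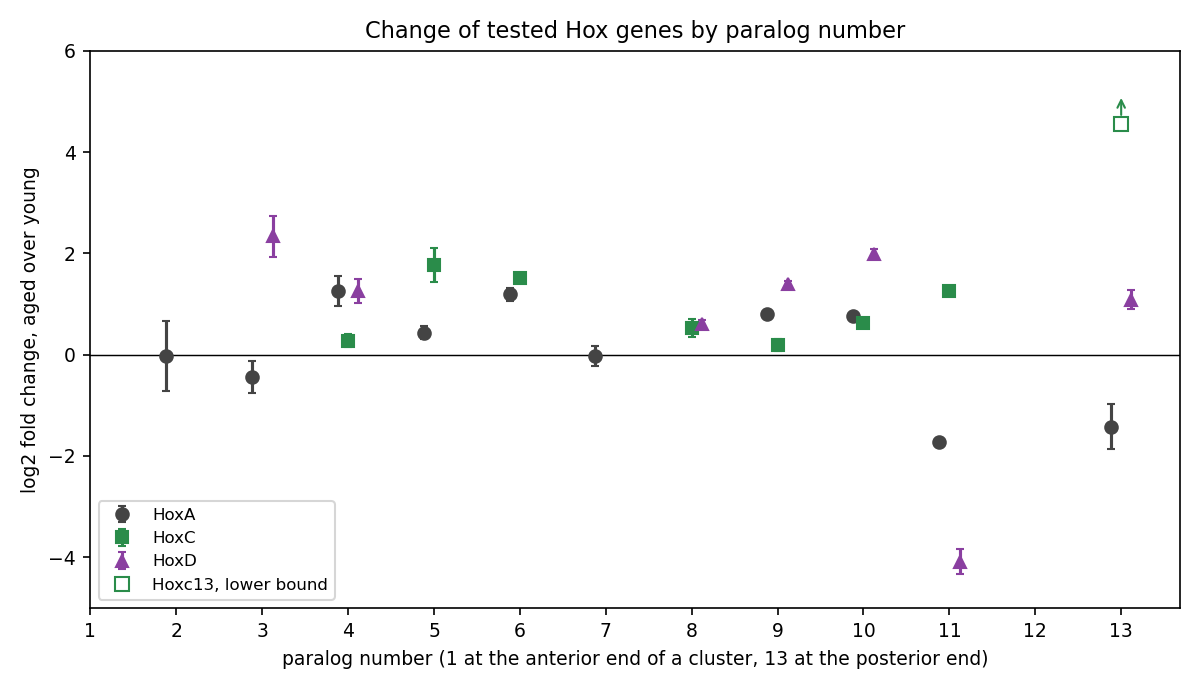
Log2 fold change, aged over young, of the tested Hox genes described in the text against paralog number, with bars of 1 SE from edgeR; Hoxc13 is drawn as an open square at its lower bound because all young libraries had 0 counts. From paralog 4 to paralog 10 the points lie at or above 0 except Hoxa7 (-0.03), and at paralog 11 Hoxa11 (-1.72) and Hoxd11 (-4.09) lie below 0 while Hoxc11 (1.26) lies above.

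Over all 26 tested genes, 19 had every aged library above every young one and 3 the opposite, beside 45.2% and 42.4% of all tested genes. By cluster, 5 of 11 HoxA genes rose and 2 fell, 7 of 8 tested HoxC genes rose and 0 fell, and 6 of 7 tested HoxD genes rose and 1 fell. Of all tested genes 44.7% were called higher and 41.8% lower. The share of HoxA genes called higher, 45.5%, was close to that, and 18.2% were lower. The members that passed the filter passed it partly through the group in which they were high, so these are counts of tested genes only. In RefSeq the span of Hoxa3 runs over Hoxa4, Hoxa5 and Hoxa6, and that of Hoxc6 over Hoxc4 and Hoxc5, so the split of reads among these genes depends on the authors' annotation and is uncertain. RefSeq also lists the symbol of another Hox gene as a synonym for 4 rat genes (Hoxa2, Hoxa7, Hoxa11 and Hoxc9), and the names here are those of the deposited table.

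The partner genes of Hox proteins did not move as one. Of 11 genes of the TALE homeobox class, which holds Meis, Pbx, Pknox and Tgif, 10 could be tested, 4 rose and 3 fell, and the median log2 change was 0.01. Meis2, a cofactor of the proximal limb, rose most, with 9.79 ± 0.707 CPM in aged and 2.48 ± 0.211 CPM in young cells, a log2 change of 1.98 ± 0.14 (edgeR adjusted p = 2.6e-10). Meis1 rose to 43.1 ± 1.15 CPM in aged cells, against 28.2 ± 1.75 CPM in young ones, and Pbx3 to 49.6 ± 0.685 CPM, against 29.4 ± 2.56 CPM. The repressor gene Tgif1 had 83.8 ± 2.55 CPM in aged and 55.8 ± 1.82 CPM in young cells. Pknox1 fell to 21.2 ± 0.747 CPM in aged cells, against 41.1 ± 1.92 CPM in young ones, Meis3 to 13.6 ± 0.633 CPM, against 19.98 ± 1.92 CPM, and Pbx2 to 36.0 ± 0.294 CPM, against 49.3 ± 2.06 CPM. Pbx2 was not called with library totals alone (edgeR adjusted p = 0.061). Tgif2 had 6.02 ± 0.551 CPM in aged and 5.81 ± 0.431 CPM in young cells and was called higher, among the alternatives run, only with library totals alone (edgeR adjusted p = 0.011). Pbx4 had 47 counts over the aged and 52 over the young libraries and was not called. Means are given with SD over 3 libraries here and below.

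Limb and girdle position factors showed changes in both directions, with 10 of 18 tested genes higher and 7 lower among 22 listed. Pitx1 and Tbx4, which set hindlimb identity in mouse, were present in both groups. Pitx1 had 29.8 ± 1.36 CPM in aged and 25.7 ± 1.90 CPM in young cells (edgeR adjusted p = 0.011), and the call was lost without aged replicate 2 (edgeR adjusted p = 0.064). Tbx4 had 16.9 ± 1.11 CPM in aged and 8.44 ± 0.562 CPM in young cells, 2-fold higher. Tbx5, the forelimb gene, had 137 counts over the aged and 6 over the young libraries, with levels of 1.10 ± 0.0787 and 0.0543 ± 0.0258 CPM and a log2 change of 4.26 ± 0.52 (edgeR adjusted p = 6.1e-07). So Tbx5 was near the limit of detection in young cells and low in aged ones, beside Tbx4 and Pitx1 in both. Irx2 had 557 counts over the aged and 8 over the young libraries, a log2 change of 5.88. With single libraries left out the change of Irx2 ran from 5.30 to 7.17 (without young replicate 2). Irx3, a proximal limb gene, fell to 22.0 ± 2.51 CPM in aged cells, against 116 ± 5.46 CPM in young ones. Tbx15, a shoulder and hip gene, rose to 145 ± 3.30 CPM in aged cells, against 52.2 ± 2.80 CPM in young ones. Prrx1 and Prrx2, early limb mesenchyme genes, fell to 270 ± 2.51 and 211 ± 3.01 CPM in aged cells, against 593 ± 65.1 and 339 ± 8.53 CPM in young ones.

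**Figure D4:**
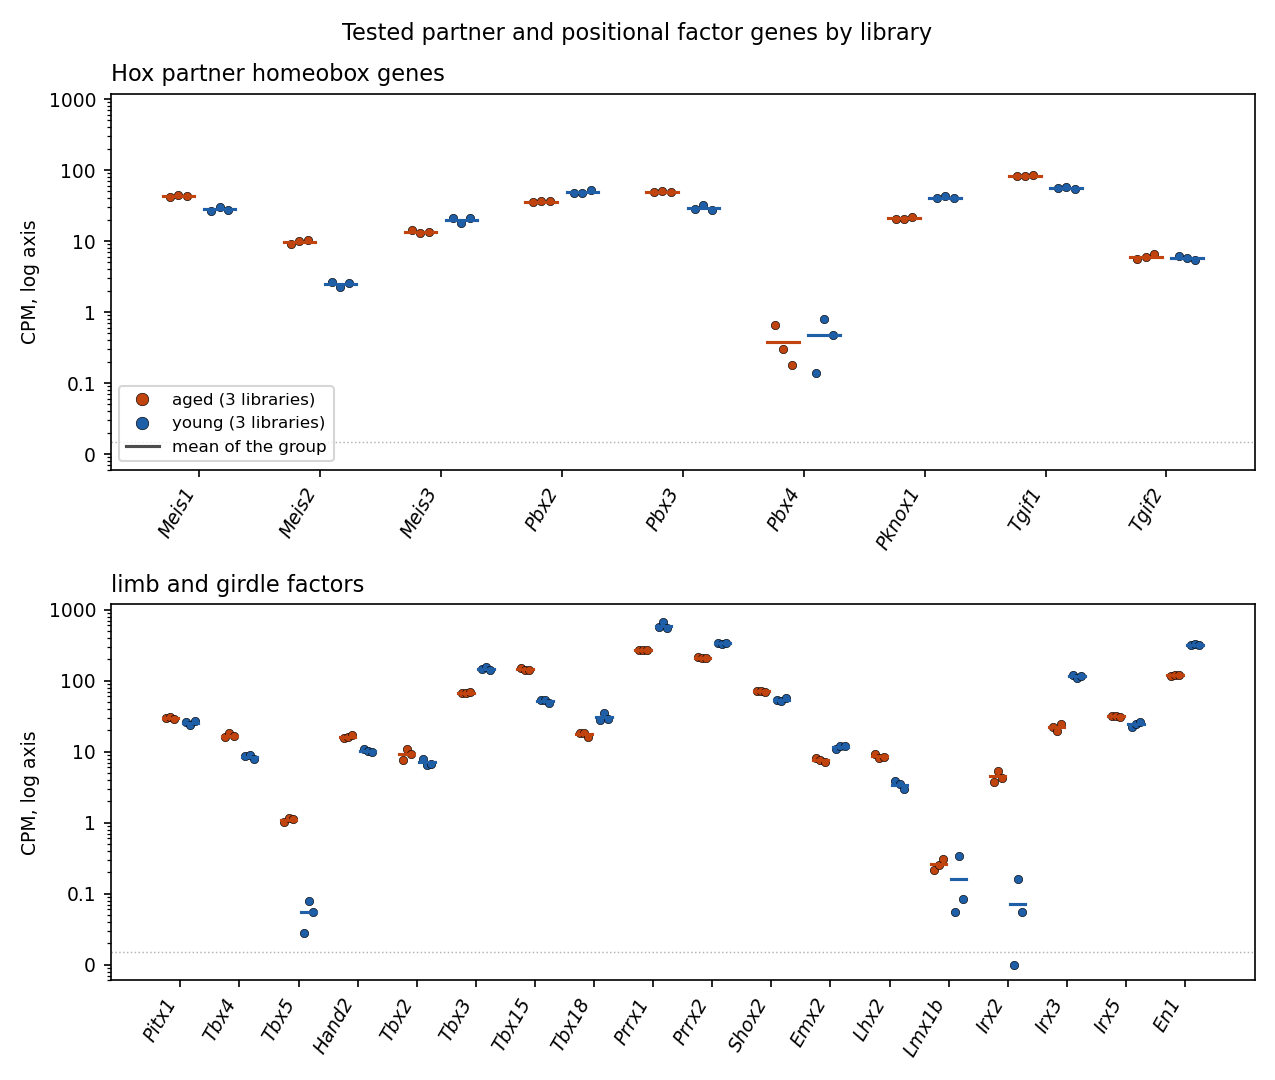
Level of tested partner genes (upper panel) and tested limb and girdle genes (lower panel) in each library, in CPM on a log axis, with libraries at 0 on the lowest tick; points are libraries and bars group means. Meis2 lies near 9.79 CPM in aged and 2.48 CPM in young libraries, and Tbx5 near 1.10 CPM in aged and 0.0543 CPM in young ones.

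Of 30 Polycomb and Trithorax genes all could be tested, and 15 rose and 8 fell (24 and 6 with library totals alone). The H3K27 demethylase gene Kdm6a rose by a log2 change of 3.53 ± 0.10, to 32.5 ± 1.246 CPM in aged cells, against 2.80 ± 0.358 CPM in young ones. Suz12, a core subunit of Polycomb repressive complex 2, had 61.8 ± 1.48 CPM in aged and 9.08 ± 1.76 CPM in young cells. Pcgf6 and Bmi1, subunits of Polycomb repressive complex 1, had 15.4 ± 0.890 and 70.8 ± 1.47 CPM in aged cells, against 2.50 ± 0.649 and 15.0 ± 2.06 CPM in young ones. The histone-binding gene Rbbp7 rose to 180 ± 1.67 CPM in aged cells, against 135 ± 10.7 CPM in young ones, and the chromobox gene Cbx6 fell to 163 ± 1.72 CPM, against 231 ± 15.3 CPM. Ezh2, a methyltransferase gene whose product works with Suz12, was chosen after its values were seen. It fell to 7.07 ± 0.385 CPM in aged cells, against 16.2 ± 0.872 CPM in young ones (edgeR adjusted p = 2.3e-09). The related methyltransferase gene Ezh1 rose to 52.8 ± 1.62 CPM in aged cells, against 39.7 ± 0.615 CPM in young ones (edgeR adjusted p = 1.6e-06). Eed and Jarid2 were also called higher and Rbbp4 lower. Subunits of the same complex thus changed in opposite directions.

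Retinoic acid, an inducer of anterior Hox genes, is read by nuclear receptors. Of 17 listed genes of this pathway 15 were in the table and 10 could be tested, 2 higher and 6 lower; the list median of -0.19 became 0.15 with library totals alone. Rxra, a receptor subunit, fell to 47.9 ± 2.17 CPM in aged cells, against 159 ± 4.14 CPM in young ones, and Rarg to 93.0 ± 4.06 CPM, against 135 ± 3.21 CPM. The retinoic acid-binding gene Crabp1 fell to 5.94 ± 0.581 CPM in aged cells, against 39.9 ± 3.03 CPM in young ones. Rarb, itself a retinoid target, had 74 counts over the aged libraries and 1 over the young ones, a TMM-scaled ratio of 65.5 (95% exact binomial interval 11.4 to 2623). This interval too covers counting error only. The only young count of Rarb was in young replicate 2, and without that library the fitted log2 change of 5.61 became 7.56, a value that depends on the prior count of the fit and is no bound because the young libraries left were at 0. Rdh10, an enzyme of retinal supply, rose to 10.97 ± 0.238 CPM in aged cells, against 5.66 ± 0.862 CPM in young ones. Of 13 caudal factors and signals linked to Hox timing 8 were in the table and 3 could be tested. Nr6a1, a regulator of trunk Hox timing in mouse, rose to 8.46 ± 0.502 CPM in aged cells, against 3.53 ± 0.365 CPM in young ones. Gdf11, the signal that sets the onset of posterior Hox genes in the embryo, fell to 28.8 ± 1.28 CPM in aged cells, against 78.8 ± 1.93 CPM in young ones. Cdx2 had 5 counts over the aged and 0 over the young libraries.

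Head skeleton and neural crest homeobox genes, which mark tissue free of Hox expression, were low as far as they were detected. Of 23 listed 22 were in the table and 13 could be tested, with 7 higher and 6 lower in aged cells. Pax3 had 103 counts over the aged libraries and 0 over the young ones, a level of 0.833 ± 0.309 CPM in aged cells and a rise of at least 10.1-fold against a floor of 3 counts per young library. Lhx8 and Dlx2 had 8 and 24 counts over the aged libraries, against 84 and 216 over the young ones. Dlx3 fell to 2.26 ± 0.247 CPM in aged cells, against 20.2 ± 1.10 CPM in young ones. Msx1, a gene of skull and tooth, rose to 16.1 ± 0.532 CPM in aged cells, against 11.8 ± 0.466 CPM in young ones. The share of called genes was 100% for this list, 94.4% for limb and girdle genes, 70% for partners, 76.7% for Polycomb and Trithorax, 80% for retinoic acid and 66.7% for the caudal list, beside 86.4% of all tested genes.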

How the data were processed

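Polyadenylated RNA of 3 aged and 3 young libraries was measured. The deposited file holds the authors' raw counts, 1 row per gene symbol and 1 column per library, not normalized; columns were matched to samples through the library names in the labels. Per the submitters' processing notes, fastp, HISAT2 and HTSeq were used. Build, annotation and strand setting: not given in the sources used here. Every row carries a symbol. Replicate libraries differed by 3.16 to 11.1 times counting noise (chi-square per gene), so no library repeated the counts of another. Whether libraries of a group shared an animal or culture cannot be told from this. Young replicate 2 differed most from its group.

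Genes were kept by filterByExpr (minimum count 10), scaled by TMM and tested with edgeR 4.0.16 in R 4.3.3 (glmQLFit, glmQLFTest, group as the only term), with Benjamini-Hochberg adjustment over all 14273 tested genes and calls at 0.05. The SE is the fitted log2 change divided by the square root of F. A group at 0 was given a floor of 3 counts per library. The procedure was also run on simulated data in which a small set of well-counted genes changed, up or down at random. In the real data 86.4% of tested genes were called, so those simulated data do not test the scaling used here. DESeq2 1.42.0, limma-voom (limma 3.58.1), other scalings and filters, a replicate block and single left-out libraries were alternatives. Members and lists were chosen with earlier results of these data known. The naming rule covered every Hox gene, all tested partner genes, and of each other list the 4 largest called changes and the 2 highest levels, plus Pitx1, Tbx4 and Tbx5; a few genes that it covers count in the totals and are not reported here. Window sequences are from RefSeq (GRCr8), and no coordinates are given for genes because the table names no build. Transcript lengths were not used.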

Additional observations from a re-analysis of the deposited data

How the results depend on the processing

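The count of Hox genes called higher, 18, ran from 16 to 20 over the alternatives run, and the count called lower, 3, was 2 with a minimum count of 50 and 3 in every other alternative. Of 323 values of single Hox genes under alternatives, 314 kept their side of the threshold, 8 lost the call and 1 gained one. Among called values 0 reversed direction. The sign of uncalled genes was not always kept. For Hoxa2 and Hoxa7 the log2 change was -0.03 each in the main fit and 0.31 each with library totals alone. With library totals alone the log2 ratio of summed counts was 0.87 for all Hox genes (0.54 with TMM), 0.52 for HoxA (0.18), 1.23 for HoxC (0.89) and 1.17 for HoxD (0.84). Leaving out single libraries gave 0.16 to 0.19 for HoxA. The same scaling called 24 Polycomb and Trithorax genes higher instead of 15. A minimum count of 50 left 1 higher retinoic acid gene instead of 2, and 4 higher and 3 lower head skeleton genes instead of 7 and 6, because fewer genes were tested. With no low-count filter Hoxc4 lost its call (edgeR adjusted p = 0.056), as it did with the DESeq2 test (adjusted p = 0.073).

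Replicate numbers are shared by the groups but nothing in the labels pairs them, and deviations of same-numbered libraries from their group means correlated between -0.01 and 0.01. With the replicate block 17 Hox genes were called higher and 3 lower, the difference being Hoxc4 (edgeR adjusted p = 0.058). Counts per kilobase were not run because no transcript lengths were used. Genes under about 10 counts per library, such as the HoxB genes, Hoxc12 and Hoxd1, are limited by depth.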
